A study of Mus musculus with 16 samples.

Results

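The 35 genes described here make sterols and fatty acids, or set how much of them is made. They were listed by name for their place in these pathways and comprise 18 enzymes of cholesterol synthesis, 4 genes of SREBP control, 11 genes of fatty acid synthesis, desaturation and elongation, and the cholesterol genes *Cyp46a1* and *Abca1*. All 35 were found among the 39179 gene identifiers of a count table from RNA sequencing of mouse brain. The 16 libraries, 1 per mouse, form 4 groups of 4, namely wild-type and V338Y mice at 3 and at 19 months of age. V338Y mice, on a C57/BL6 background, are homozygous for a knock-in that replaces 1 amino acid of *Mrps5*, a protein of the small mitochondrial ribosomal subunit. The labels name no treatment in any group. The labels give brain as the tissue and name muscle in the extraction protocol, whereas the study's methods describe dissected cortex. The comparison of ages asks how transcripts differed between young and old mice of 1 genotype. The comparison of genotypes asks how they differed between V338Y and wild-type mice of the same age.

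The brain makes nearly all of its own cholesterol, since lipoproteins of the blood do not cross the blood-brain barrier, and most of it lies in myelin. Acetyl-CoA is joined to HMG-CoA, turned into mevalonate and isoprenoids, condensed to squalene and cyclized to lanosterol, which a further chain of enzymes converts to cholesterol. When membrane sterol is low, Scap carries the SREBP precursors to the Golgi, where they are cut to release transcription factors for these enzymes (mainly *Srebf2*) and for fatty acid synthesis (mainly *Srebf1*), and Insig proteins hold them back when sterol is plentiful.

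Promoters are shown because SREBP acts on such genes through sterol regulatory elements, usually beside the CCAAT box bound by NF-Y. RefSeq promoter windows of GRCm38.p6, each 300 bases long with 250 bases before and 50 after the start, were found for 29 of the 35 genes. The letters TCACNCCAC, which resemble a sterol regulatory element, were searched on both strands and occurred in 1 of the 29, *Hmgcs1*, or 3.45%, against 1.44% of the 27025 genes with a window. CCAAT, on either strand, occurred in 23 of the 29 (79.3%), against 41.1% of all genes. The 4 windows printed here belong to a pair of early enzymes that were lower at 19 months (*Hmgcs1*, the HMG-CoA synthase, in wild type, and *Mvd*, a decarboxylase, in both genotypes) and to a later sterol gene and a fatty acid gene that were higher in both (*Msmo1* and *Fasn*). Capitals mark CCAAT or its reverse complement and, in *Hmgcs1*, also the TCACNCCAC match that begins 137 bases before the start and overlaps no CCAAT. The windows of *Hmgcs1*, *Mvd*, *Msmo1* and *Fasn* held 4, 2, 3 and 3 CCAAT matches, the last pair in *Fasn* sharing letters. Such a match describes letters and not a bound site, and the absence of one says nothing about a factor.
Hmgcs1, chr13:119690101-119690400 (+): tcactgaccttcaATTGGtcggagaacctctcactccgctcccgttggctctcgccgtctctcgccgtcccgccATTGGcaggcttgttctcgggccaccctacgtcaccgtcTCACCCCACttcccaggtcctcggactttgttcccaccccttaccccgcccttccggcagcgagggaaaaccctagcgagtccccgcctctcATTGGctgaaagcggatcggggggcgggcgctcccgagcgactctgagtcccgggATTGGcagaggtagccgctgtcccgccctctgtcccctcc
Mvd, chr8:122443373-122443672 (-): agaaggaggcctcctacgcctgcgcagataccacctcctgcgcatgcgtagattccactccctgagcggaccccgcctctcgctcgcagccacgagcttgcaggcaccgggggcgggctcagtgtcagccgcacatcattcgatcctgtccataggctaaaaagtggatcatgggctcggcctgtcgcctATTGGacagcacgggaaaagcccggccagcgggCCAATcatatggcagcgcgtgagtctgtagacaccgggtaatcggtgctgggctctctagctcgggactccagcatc
Msmo1, chr8:64733529-64733828 (-): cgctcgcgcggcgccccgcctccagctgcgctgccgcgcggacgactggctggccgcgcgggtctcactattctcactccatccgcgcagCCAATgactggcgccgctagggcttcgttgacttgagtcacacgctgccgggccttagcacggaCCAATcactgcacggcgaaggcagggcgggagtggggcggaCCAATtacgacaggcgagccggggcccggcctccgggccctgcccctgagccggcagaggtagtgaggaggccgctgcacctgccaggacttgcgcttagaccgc
Fasn, chr11:120824498-120824797 (-): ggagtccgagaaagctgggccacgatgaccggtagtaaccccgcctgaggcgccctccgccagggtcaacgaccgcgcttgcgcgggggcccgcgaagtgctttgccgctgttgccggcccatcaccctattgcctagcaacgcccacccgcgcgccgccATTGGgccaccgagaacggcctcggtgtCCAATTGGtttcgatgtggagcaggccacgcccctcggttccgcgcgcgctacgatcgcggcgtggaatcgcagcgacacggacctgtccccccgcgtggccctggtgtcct

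Levels are CPM, counts scaled to the same effective library total in every sample by TMM, a normalization that takes most genes as unchanged, and fold changes and adjusted p-values come from the quasi-likelihood test of edgeR, adjusted over all genes tested. A gene is called higher or lower where the adjusted p was under 0.05. Total counts were between 6181448 and 19601664 per library. The 35 genes had between 47 (*Idi1*) and 38680 counts (*Scd2*) in a library, and all 35 passed the count filter in every comparison. The 19-month libraries differed from the 3-month libraries in more than age. The Y-linked *Ddx3y* was at 112 to 128 CPM in 3-month wild-type and 99.8 to 124 CPM in 3-month V338Y mice and had no count at 19 months, whereas *Xist* was at 0.448 to 0.865 and 0.831 to 1.23 CPM at 3 months and at 759 CPM or more in wild-type and 715 CPM or more in V338Y mice at 19 months. Age and sex, as read from these transcripts, therefore cannot be told apart for any of the 35 genes, although the methods give all mice as female. The 8 cerebellum markers summed to 653 to 1045 CPM in 3-month wild-type mice and 108 to 131 CPM at 19 months, and among 3-month V338Y mice to 139.9 CPM in mouse 14 and at least 1137 CPM in the other 3. Markers of cerebral cortex neurons were present in all 4 groups, with sums of 203 to 218, 179 to 254, 242 to 252 and 241 to 279 CPM in the order 3-month wild-type, 3-month V338Y, 19-month wild-type and 19-month V338Y. In RNA of whole tissue, fewer cells of a type and less RNA per cell cannot be told apart.

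Compared per kilobase of exon (CPM per kilobase), the 35 genes spanned a wide range in 3-month wild-type mice. *Scd2*, the main stearoyl-CoA desaturase of brain, stood highest at 255 ± 11.9 (SD, n = 4), followed by *Hmgcs1* at 57.3 ± 1.95 and *Acly*, which makes cytosolic acetyl-CoA from citrate, at 47.8 ± 1.199. *Fasn*, the fatty acid synthase, *Fads1*, a desaturase of polyunsaturated chains, and *Cyp46a1*, which hydroxylates cholesterol in neurons, came next at 37.95 ± 1.44, 36.8 ± 1.11 and 36.7 ± 1.44, and these 3 lay within 2 SD of each other. The lowest were *Idi1*, the isopentenyl diphosphate isomerase, at 2.74 ± 0.387, *Dhcr7*, a reductase at the end of the sterol chain, at 2.52 ± 0.115, and *Acacb*, the acetyl-CoA carboxylase of the mitochondrial surface, at 1.25 ± 0.216. The order is a description, since exon length stands in for the length of the transcripts that were read.

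Between 3 and 19 months, early and later steps of the pathway differed in direction. Most enzymes that lead to farnesyl diphosphate were lower at 19 months, 4 sterol enzymes after lanosterol were higher in both genotypes, and *Abca1*, *Srebf2*, *Srebf1*, *Acacb* and *Scd1* had the widest rises in wild type. In wild type, 19 of the 35 genes were called higher and 8 lower, beside 31.4% and 31.5% of the 16101 genes tested. In V338Y mice, 16 were called higher and 6 lower, beside 23.1% and 25.7% of 16770 genes. The lower calls in V338Y mice depended on single mice, falling from 6 to 2 without 3-month mouse 13 or 14 or 19-month mouse 19, to 3 without 3-month mouse 16 or 19-month mouse 17, 18 or 20, and to 3 with DESeq2, while the higher calls stayed between 14 and 16 when 1 mouse was left out. The 35 genes had a median log2 fold change of 0.16 (wild type) and 0.12 (V338Y), against -0.0050 and -0.029 over all genes tested. Lower calls were no more frequent among the 35 than among all genes in either genotype. Scaled by library size alone, the wild-type calls divided into 13 higher and 11 lower, beside 4175 higher and 6321 lower of all 16101 genes. The wild-type higher calls lost under this scaling were *Sqle*, *Lss*, *Cyp51*, *Sc5d*, *Insig1* and *Scap*. In V338Y mice the same scaling gave 13 higher and 6 lower, beside 3421 higher and 5319 lower of all 16770 genes. The 2 age comparisons share no mouse, although both share the sex-linked and most of the cerebellum difference. Of the 35 genes, 21 were called in both, all with the same sign (16 higher, 5 lower), which is 77.8% of the wild-type calls and 95.5% of the V338Y calls. That is 60% of the 35 genes, beside 44.3% of the 16040 genes tested in both. Another 6 were called in wild type and not in V338Y mice, *Tm7sf2* was called in V338Y mice and not in wild type, and 7 were called in neither. Among the called genes, the CPM of the ages overlapped for *Sqle*, *Lss*, *Cyp51* and *Scap* in wild type and for *Tm7sf2* and *Sc5d* in V338Y mice. Across the 35 genes, whose fold changes come from the same libraries and are not independent, the 2 sets of log2 fold changes had a Pearson correlation of 0.942.

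**Figure D1:**
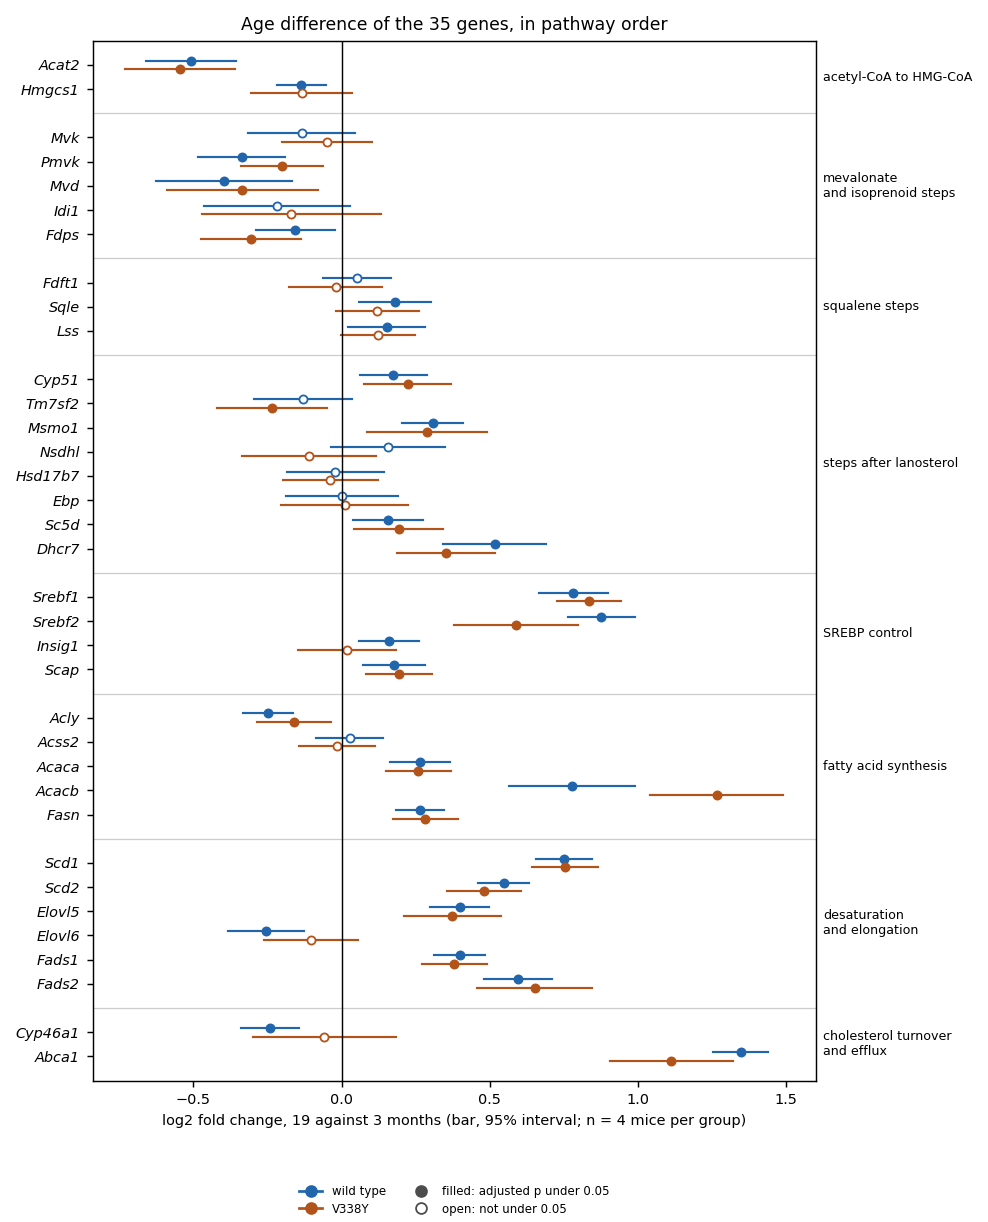
Log2 fold change between 19 and 3 months (x axis) for the 35 genes in pathway order (y axis), in wild-type (blue) and V338Y mice (brown), with 95% confidence intervals from 4 mice per group and filled points where the adjusted p was under 0.05. All 7 genes from *Acat2* to *Fdps* lie left of 0 in both genotypes, and the 3 farthest right in V338Y mice are *Acacb*, *Abca1* and *Srebf1*.

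The enzymes from acetyl-CoA to farnesyl diphosphate had a negative log2 fold change with age in all 7 cases in each genotype, with 5 called lower in wild type and 4 in V338Y mice. Values of the 4 mice of a group are given in the order of their numbers, which are 9 to 12 for 3-month wild-type, 13 to 16 for 3-month V338Y, 12 to 15 for 19-month wild-type and 17 to 20 for 19-month V338Y mice. *Acat2*, the cytosolic thiolase that joins acetyl-CoA units, was at 32.2, 32.0, 33.2 and 31.2 CPM at 3 months and 22.1, 21.8, 20.1 and 24.7 CPM at 19 months in wild type. In V338Y mice it was at 35.2, 30.8, 26.6 and 28.3 CPM and 20.1, 21.5, 20.2 and 20.6 CPM. Every 19-month mouse lay below every 3-month mouse in both genotypes (log2 fold change -0.51, SE 0.074, adjusted p = 6.3e-07 in wild type and log2 fold change -0.54, SE 0.086, adjusted p = 0.00022 in V338Y mice), the widest drop among the 35 genes. *Fdps*, which makes farnesyl diphosphate, was at 38.1, 40.3, 38.8 and 40.9 CPM at 3 months and 35.5, 33.1, 33.2 and 37.4 CPM at 19 months in wild type. In V338Y mice *Fdps* was at 50.4, 47.8, 39.6 and 42.7 CPM and 34.2, 34.3, 38.01 and 38.7 CPM. The ages did not overlap in either genotype, and the log2 fold change was -0.31 in V338Y (SE 0.078, adjusted p = 0.00613) and -0.16 in wild-type mice (SE 0.066, adjusted p = 0.0395). The wild-type call was lost without any 1 of 3-month mice 10 and 12 and of 19-month mice 12, 13 and 14, with adjusted p-values up to 0.149.

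Of the other 5 early enzymes, *Mvd*, the mevalonate diphosphate decarboxylase, fell from 16.6 ± 2.95 to 12.5 ± 0.902 CPM in wild type (SD, n = 4, log2 fold change -0.40, adjusted p = 0.00291) and from 17.4 ± 3.02 to 13.6 ± 1.35 CPM in V338Y mice (log2 fold change -0.34, adjusted p = 0.0312). *Pmvk*, the phosphomevalonate kinase, fell from 34.2 ± 2.34 to 26.2 ± 0.443 CPM in wild type (log2 fold change -0.34, adjusted p = 0.00014) and from 32.8 ± 1.63 to 28.4 ± 1.40 CPM in V338Y mice (log2 fold change -0.20, adjusted p = 0.0199). The V338Y calls depended on single mice. Leaving out 3-month mouse 13 or 14 or 19-month mouse 17, 19 or 20 ended that of *Mvd* (adjusted p up to 0.128), and leaving out 3-month mouse 13, 14 or 16 or 19-month mouse 18 or 19 ended that of *Pmvk* (up to 0.0717). *Hmgcs1*, whose promoter is printed above, ranged over 251 to 273 CPM at 3 months and 227 to 238 CPM at 19 months in wild type and was called lower (log2 fold change -0.14, adjusted p = 0.00443). In V338Y mice the ages overlapped with 3-month mouse 15 at 214 CPM, below all 19-month mice, and *Hmgcs1* was not called (log2 fold change -0.14, adjusted p = 0.174). Neither genotype gave a call for *Mvk*, the mevalonate kinase (-0.13 in wild type and -0.050 in V338Y mice), or for *Idi1* (-0.22 and -0.17).

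From squalene onward the called genes were higher at 19 months, apart from *Tm7sf2*. *Fdft1*, the squalene synthase, was called in neither genotype (log2 fold change 0.053, adjusted p = 0.420 in wild type and log2 fold change -0.020, adjusted p = 0.837 in V338Y mice). *Sqle*, the squalene epoxidase, and *Lss*, which closes the rings to lanosterol, were called higher in wild type (log2 fold change 0.18, adjusted p = 0.00893 and log2 fold change 0.15, adjusted p = 0.0380) and had log2 fold changes of 0.12 and 0.12 in V338Y mice, where neither was called (adjusted p = 0.139 and 0.0985). The *Lss* call was lost without 3-month mouse 9, 11 or 12 or 19-month mouse 12, which alone stood at 62.0 CPM (adjusted p up to 0.253), and the *Sqle* call without 19-month mouse 13 (0.0605).

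Among the 8 enzymes after lanosterol, *Cyp51*, *Msmo1*, *Sc5d* and *Dhcr7* were called higher at 19 months in both genotypes. *Msmo1*, a sterol methyl oxidase, was at 71.8, 78.4, 77.3 and 80.2 CPM at 3 months and 93.8, 94.5, 88.0 and 95.6 CPM at 19 months in wild type. In V338Y mice the values were 85.1, 85.4, 61.0 and 78.9 CPM and 98.4, 96.2, 90.6 and 92.3 CPM. The ages stood apart in both (log2 fold change 0.31, SE 0.051, adjusted p = 4.6e-06 in wild type and log2 fold change 0.29, SE 0.092, adjusted p = 0.0217 in V338Y mice), although 3-month V338Y mouse 15 lay far below its group. *Dhcr7* was at 14.6, 14.1, 14.3 and 15.6 CPM and 19.6, 21.9, 20.2 and 19.8 CPM in wild type. In V338Y mice *Dhcr7* was at 16.5, 16.4, 17.04 and 14.9 CPM and 21.5, 19.2, 19.9 and 21.9 CPM. This was the widest rise of the 18 sterol enzymes in both genotypes (log2 fold change 0.52, SE 0.086, adjusted p = 4.7e-06 in wild type and log2 fold change 0.35, SE 0.077, adjusted p = 0.00225 in V338Y mice). *Cyp51*, the lanosterol demethylase, and *Sc5d*, a sterol desaturase, rose by 0.17 and 0.16 on the log2 scale in wild type (adjusted p = 0.00722 and 0.0203) and by 0.22 and 0.19 in V338Y mice (0.0159 and 0.0354). Scaled by library size alone, neither was called in wild type.

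Several of these sterol calls depended on 1 mouse. *Sc5d* was no longer called in wild type without 3-month mouse 10 or 19-month mouse 15 (adjusted p up to 0.0882), nor in V338Y mice without 3-month mouse 14, 15 or 16 or 19-month mouse 18, 19 or 20 (up to 0.0862). *Msmo1* was no longer called in V338Y mice without 3-month mouse 16 or 19-month mouse 17 or 18 (up to 0.0621). *Tm7sf2*, a sterol reductase, went the other way and was called lower in V338Y mice (log2 fold change -0.23, SE 0.086, adjusted p = 0.0385), with 3-month values of 30.6, 28.9, 23.3 and 24.9 CPM that overlapped the 19-month values of 23.7, 22.2, 22.4 and 23.1 CPM. That call was lost without any single mouse of the comparison except 3-month mouse 15 (adjusted p up to 0.170), and the exons of *Tm7sf2* overlap those of *Vps51* on the same strand. *Nsdhl* and *Ebp*, both on the X chromosome, and *Hsd17b7* carry out other steps of the chain and were called in neither genotype, with log2 fold changes between -0.11 and 0.16. Exons of *Cyp51* and *Fdft1* overlap *Akap9* and *Ctsb* on the opposite strand, so their counts are uncertain if strand was not used in counting.

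Of the 4 SREBP control genes, all were higher at 19 months in wild type and 3 in V338Y mice. *Srebf1*, which encodes the SREBP of fatty acid synthesis, was at 104, 95.5, 106 and 84.5 CPM at 3 months and 161, 171, 164 and 156 CPM at 19 months in wild type. In V338Y mice *Srebf1* was at 99.8, 98.0, 94.2 and 92.0 CPM and 173, 171, 169 and 169 CPM. The ages were far apart in both genotypes, with a log2 fold change of 0.78 in wild type (SE 0.057, adjusted p = 5.2e-12) and 0.83 in V338Y mice (SE 0.050, adjusted p = 6.1e-08). *Srebf2*, the SREBP of sterol synthesis, was at 86.9, 82.2, 88.1 and 75.7 CPM and 139, 159, 155 and 139.6 CPM in wild type. In V338Y mice *Srebf2* was at 81.4, 95.7, 110.2 and 102 CPM and 129, 153, 139 and 162 CPM. It rose by 0.88 on the log2 scale in wild type (SE 0.055, adjusted p = 4.9e-14) and by 0.59 in V338Y mice (SE 0.096, adjusted p = 0.00039), a difference between the genotypes that was not called (interaction -0.26, adjusted p = 0.446). *Scap* was called higher in both genotypes (log2 fold change 0.18, adjusted p = 0.00364 and log2 fold change 0.19, adjusted p = 0.00780). *Insig1* was called higher in wild type (log2 fold change 0.16, adjusted p = 0.00567) and had a log2 fold change of 0.018 in V338Y mice (adjusted p = 0.868). Exons of *Srebf1* overlap *Rai1* on the opposite strand.

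**Figure D2:**
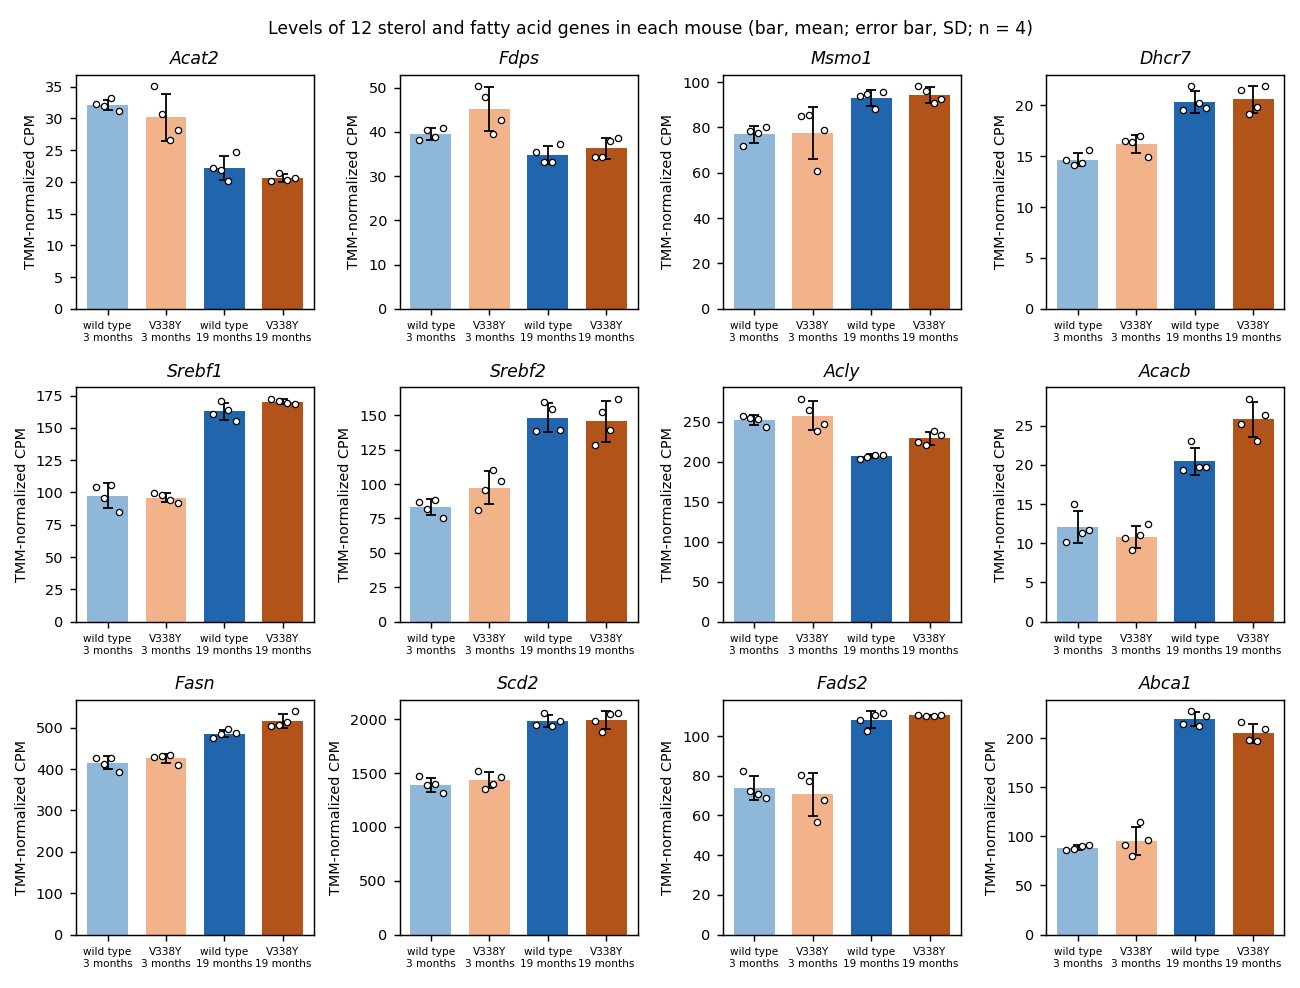
CPM after TMM normalization (y axes, from 0) of 12 of the genes in the 4 groups (x axes), with 1 open circle per mouse, bars for the mean and error bars for the SD of 4 mice. Within each genotype the 19-month mean lies below the 3-month mean for *Acat2*, *Fdps* and *Acly* and above it for the other 9 genes.

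Fatty acid synthesis genes split at the first step. *Acly* was at 258, 255, 254 and 243 CPM at 3 months and 204, 206, 209 and 209 CPM at 19 months in wild type. In V338Y mice it was at 279, 265, 239 and 247 CPM and 225, 221, 239 and 234 CPM. The highest 19-month V338Y mouse, at 238.7 CPM, came just under the lowest 3-month one, at 239.2 CPM. *Acly* was lower at 19 months in both (log2 fold change -0.25, SE 0.041, adjusted p = 4.2e-06 in wild type and log2 fold change -0.16, SE 0.058, adjusted p = 0.0364 in V338Y mice), and the V338Y call was lost without any single mouse of the comparison except 3-month mouse 15 (adjusted p up to 0.169). *Acss2*, which makes acetyl-CoA from acetate, was called in neither genotype (0.027 and -0.015, adjusted p = 0.682 and 0.854), and its exons overlap those of *Ggt7* and *Gss* on the opposite strand. The carboxylases and the synthase were higher. *Acaca*, the cytosolic acetyl-CoA carboxylase, rose from 103 ± 4.56 to 121 ± 5.87 CPM in wild type (SD, n = 4, log2 fold change 0.26, adjusted p = 2.7e-05) and from 101 ± 2.68 to 120.4 ± 5.05 CPM in V338Y mice (log2 fold change 0.26, adjusted p = 0.00116). *Fasn* was at 428, 413, 426 and 394 CPM and 476, 484, 496 and 487 CPM in wild type. In V338Y mice *Fasn* was at 430.5, 432, 433 and 410.1 CPM and 504, 507, 514 and 539.6 CPM. All 19-month mice exceeded all 3-month mice (log2 fold change 0.26, SE 0.040, adjusted p = 1.2e-06 in wild type and log2 fold change 0.28, SE 0.050, adjusted p = 0.00054 in V338Y mice).

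*Acacb*, whose product malonyl-CoA restrains fatty acid entry into mitochondria, showed the widest age difference of the 35 genes in V338Y mice. At 3 months it was at 10.2, 15.04, 11.3 and 11.7 CPM in wild-type and 10.6, 9.12, 11.1 and 12.4 CPM in V338Y mice. At 19 months it was at 19.3, 23.1, 19.7 and 19.8 CPM in wild-type and 25.3, 28.5, 23.1 and 26.3 CPM in V338Y mice. All 19-month mice stood above all 3-month mice of either genotype, and the log2 fold change with age came to 0.78 in wild type (SE 0.10, adjusted p = 1.5e-07) and 1.26 in V338Y mice (SE 0.10, adjusted p = 9.6e-07). Per kilobase of exon, the ratio of *Acaca* to *Acacb* was 4.93 ± 0.776 in 3-month wild-type and 5.33 ± 0.587 in 3-month V338Y mice, and 3.36 ± 0.275 and 2.65 ± 0.286 at 19 months (SD, n = 4).

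Desaturases and elongases were mostly higher at 19 months, 5 of 6 in each genotype. *Scd2* was at 1469.7, 1385, 1403 and 1312 CPM at 3 months and 1946, 2059, 1939 and 1982 CPM at 19 months in wild type. In V338Y mice *Scd2* was at 1518, 1356, 1396 and 1466 CPM and 1984, 1879.7, 2048 and 2054 CPM. Its ages did not overlap (log2 fold change 0.55, SE 0.042, adjusted p = 1.2e-12 in wild type and log2 fold change 0.48, SE 0.058, adjusted p = 2.5e-05 in V338Y mice), and it is the most abundant transcript of the 35. *Scd1*, its close relative, was at 169, 153, 151 and 148 CPM and 246, 261, 251 and 257 CPM in wild type. In V338Y mice *Scd1* was at 157, 154, 151 and 162 CPM and 256, 251, 259.7 and 279 CPM. It rose by 0.75 on the log2 scale in wild type and 0.75 in V338Y mice (adjusted p = 6.8e-15 and 2.1e-07). Reads shared by the 2 desaturases may have been divided between them by the counting, and exons of *Scd2* overlap *Mir5114* on the same strand. Per kilobase, *Scd1* made up 0.125 ± 0.00351 of the level of *Scd2* in 3-month wild-type and 0.122 ± 0.00489 in 3-month V338Y mice, and 0.143 ± 0.00198 and 0.147 ± 0.00461 at 19 months (SD, n = 4).

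*Fads2*, which takes the first desaturation step of polyunsaturated chains, was at 82.6, 72.5, 70.7 and 69.0 CPM at 3 months and 108, 102, 111 and 112 CPM at 19 months in wild type. In V338Y mice *Fads2* was at 80.5, 77.5, 56.8 and 67.7 CPM and 111, 109.9, 110.4 and 111 CPM. The 4 V338Y values of 19 months were nearly equal while the 3-month values were spread, and the log2 fold changes were 0.59 (wild type) and 0.65 (V338Y) (adjusted p = 1e-10 and 9e-05). *Fads1* and *Elovl5*, an elongase of polyunsaturated chains, rose by 0.40 and 0.40 in wild type (adjusted p = 1.2e-09 and 2.6e-08) and by 0.38 and 0.37 in V338Y mice (5.6e-05 and 0.00135). *Elovl6*, which lengthens saturated chains, fell in wild type from 69.6 ± 6.41 to 56.6 ± 3.25 CPM (SD, n = 4, log2 fold change -0.26, adjusted p = 0.00084) and had a log2 fold change of -0.10 in V338Y mice (adjusted p = 0.266).

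Of the genes that remove cholesterol from cells, *Abca1*, a pump that loads cholesterol onto apolipoproteins, was at 86.0, 87.1, 90.2 and 91.2 CPM at 3 months and 215, 227, 213 and 223 CPM at 19 months in wild type. In V338Y mice *Abca1* was at 91.2, 80.0, 114 and 96.4 CPM and 217, 198, 197 and 209.8 CPM. The rise with age was 1.35 on the log2 scale in wild type, the widest of the 35 there, and 1.11 in V338Y mice (SE 0.045 and 0.095, adjusted p = 1.5e-21 and 2.7e-06). *Cyp46a1* was at 127, 121, 116 and 118 CPM and 99.6, 97.6, 103 and 96.1 CPM in wild type and was called lower (log2 fold change -0.24, SE 0.048, adjusted p = 5.7e-05). In V338Y mice it was at 116, 146, 99.8 and 101 CPM and 108, 104, 121 and 110.2 CPM and was not called (log2 fold change -0.058, adjusted p = 0.691), with 3-month mouse 14 above all other mice of the series.

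Among 3-month V338Y mice, mouse 14 had the cerebellum score (the mean log2 CPM of the 8 markers) nearest to the 19-month V338Y mice, at 3.00 against 1.95 to 2.34. Without mouse 14, 15 of the 35 genes were called higher and 2 lower at 19 months, beside 24.4% and 25.2% of all genes. Mouse 14 was at 9.12 CPM for *Acacb*, 80.0 CPM for *Abca1*, 98.0 CPM for *Srebf1* and 1356 CPM for *Scd2*, below all 4 mice of 19 months in each case, and at 30.8 CPM for *Acat2* and 47.8 CPM for *Fdps*, above all 4. Mouse 14 lay outside the 19-month range in the called direction for all 22 members called in V338Y mice, and for 94.8% of all 8181 genes called there. As 1 mouse, and 1 of those behind the V338Y calls, it gives values and no separate test of age. With the cerebellum score as a covariate, 15 of the 35 genes were called in V338Y mice, beside 2496 higher and 2407 lower of all 16770 genes. The scores of 3-month mice 13, 15 and 16 lay between 6.89 and 7.40, so only mouse 14 sets score apart from age in that fit. None of the 35 was called in wild type, beside 29 higher and 39 lower of all 16101 genes. In wild type the score lay between 6.15 and 6.83 at 3 months and between 1.81 and 1.95 at 19 months, so that score and age cannot be told apart there.

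**Figure D3:**
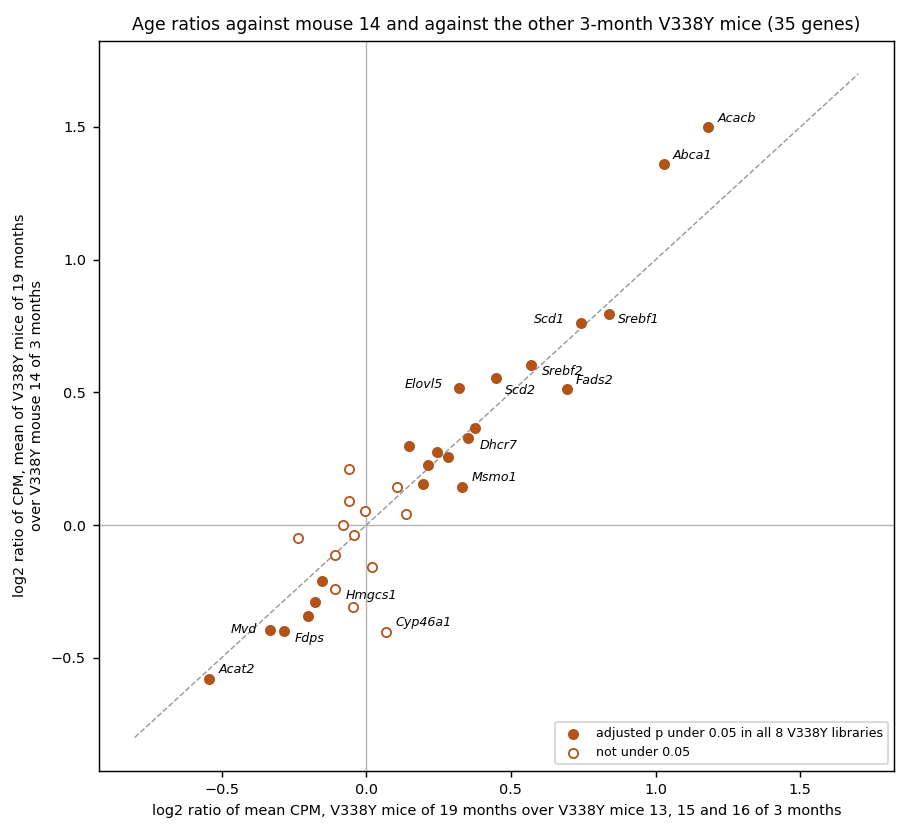
Log2 ratio of the mean CPM of the 4 V338Y mice of 19 months to that of 3-month V338Y mice 13, 15 and 16 (x axis) and to 3-month V338Y mouse 14 alone (y axis), with 1 point per gene, filled where the gene was called among all 8 V338Y libraries, and a dashed line of equality. Filled points lie on the same side of 0 on both axes, where mouse 14 is 1 of the mice behind each call, and *Cyp46a1* stands off the line, at 0.068 and -0.40.

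Many cell type markers were called with age as well. Their counts stand beside 31.4% of all genes called higher and 31.5% lower in wild type, and 23.1% and 25.7% in V338Y mice. Oligodendrocytes, which make the cholesterol and lipids of myelin, have 10 markers on the list, of which 7 were called higher and 1 lower in wild type and 6 higher and none lower in V338Y mice. Their summed level was 4242 to 4683 CPM in 3-month wild-type, 3813 to 4606 CPM in 3-month V338Y, 6343 to 6685 CPM in 19-month wild-type and 6361 to 7253 CPM in 19-month V338Y mice. *Mbp*, which encodes a myelin protein, rose by 0.72 on the log2 scale in wild type and by 0.79 in V338Y mice, whereas *Mog*, of the outer myelin face, had log2 fold changes of 0.028 and -0.074. Astrocytes, the main source of brain lipoprotein, had all 8 markers higher in both genotypes, with sums of 2945 to 3209 and 3172 to 3733 CPM at 3 months and 6603 to 7405 and 6112 to 7308 CPM at 19 months in wild-type and V338Y mice. Neurons had 8 markers, of which 6 were lower in wild type and 5 in V338Y mice, with none higher and with sums of 4576 to 4888 and 4232 to 4879 CPM at 3 months and 3812 to 4033 and 3765 to 4207 CPM at 19 months. All 6 microglia, 5 endothelial, 6 meninges and 4 blood markers were higher at 19 months in both genotypes. Endothelial sums were 182 to 192 and 183 to 193 CPM at 3 months and 828 to 885 and 766 to 936 CPM at 19 months, and meninges sums 77.4 to 106 and 97.9 to 105 CPM and 234 to 276 and 220.2 to 259 CPM. Of the 6 cerebral cortex neuron markers, 3 were higher and 1 lower in each genotype. Of the remaining lists, 2 of 5 precursor and 1 of 6 choroid plexus markers were higher in each genotype, and of 6 striatum markers 1 was higher and 1 lower in wild type and 3 were lower in V338Y mice. Sums of choroid plexus markers, from a tissue of the brain ventricles, varied most within a group, with 2231, 2280.4, 156 and 277 CPM in 19-month V338Y mice 17, 18, 19 and 20 against 329.7 to 763 CPM in 3-month V338Y mice. Without mice 17 and 18, an alternative chosen after the data were seen, 12 of the 35 genes were called higher and 1 lower with age in V338Y mice in place of 16 and 6, the lower one being *Acat2*. Over all genes, calls fell as well, to 2859 higher and 2530 lower of 16610 in place of 3875 and 4306 of 16770. The part of these marker differences in the age differences of the 35 genes was not tested.

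The 39 other genes of sterol and fatty acid handling that were listed beside the 35 had 17 called higher and 10 lower in wild type, beside 31.4% and 31.5% of all genes, and 11 higher and 4 lower in V338Y mice, beside 23.1% and 25.7%. Of 13 genes of sterol sensing, storage and transport, 8 were higher in wild type and 6 in V338Y mice and none was lower. These higher calls include *Ch25h*, which makes an immune oxysterol and passed the count filter only through the 19-month mice. At 3 months it had 2 to 12 counts in wild-type and 3 to 12 in V338Y mice (0.246 to 0.798 and 0.179 to 0.767 CPM). Its log2 fold changes of 2.38 and 2.82 in wild-type and V338Y mice therefore start from a few reads near the floor. *Soat1*, which esterifies cholesterol, rose by 0.71 and 0.69 (adjusted p = 4.8e-11 and 2.5e-06), and *Cyp27a1*, another sterol hydroxylase, by 0.53 and 0.86 (7.3e-05 and 2.2e-05). The isoprenoid branch, which draws on farnesyl diphosphate and the early enzymes, had 5 of 7 genes lower in wild type and 2 in V338Y mice, none higher. Among these, *Ggps1*, which makes geranylgeranyl diphosphate, fell by 0.32 and 0.28 (adjusted p = 4.2e-05 and 0.00322), and *Dhdds*, of dolichol synthesis, fell by 0.32 and 0.26 (0.00013 and 0.00309). *Fntb*, a subunit of the farnesyltransferase, fell by 0.37 in wild type (adjusted p = 0.00019) and had a log2 fold change of -0.17 in V338Y mice. Of 9 genes of very long chain elongation, 5 were higher and 3 lower in wild type and 3 higher and 1 lower in V338Y mice. *Elovl1* and *Elovl7*, elongases of long saturated chains found in myelin lipids, rose by 0.68 and 0.51 in wild type and by 0.76 and 0.63 in V338Y mice, and *Hacd2*, a dehydratase of the elongation cycle, by 0.45 and 0.38. Of 4 genes of SREBP processing and sterol reduction, 3 were higher in wild type and 1 in V338Y mice, *Lbr*, a sterol reductase of the nuclear envelope (0.63 and 0.56). Of 6 genes that supply citrate and NADPH or respond to carbohydrate, 1 was higher and 2 lower in wild type and 1 higher and 1 lower in V338Y mice, with *Mlxipl*, a carbohydrate-response factor, higher in both (0.93 and 0.90) and its partner *Mlx* lower in both (-0.44 and -0.38).

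Between the genotypes at 19 months, 2 of the 35 genes were called, *Acly* and *Acacb*, both higher in V338Y mice, beside 1.19% of 16420 genes called higher and 1.92% called lower. The study picked out both genes from the same libraries, so they are not independent of it. From the 19-month values given above, *Acly* was higher in every V338Y mouse than in any wild-type mouse (log2 fold change 0.13, SE 0.037, adjusted p = 0.0488). *Acacb* had 25.8 ± 2.24 CPM in V338Y and 20.5 ± 1.74 CPM in wild-type mice (SD, n = 4, log2 fold change 0.30, SE 0.080, adjusted p = 0.0272). The fold changes come from a fit that scaled these 8 libraries alone, whereas CPM were scaled over all 16, so the ratio of the printed CPM is slightly greater. The *Acacb* groups barely cleared each other, with 23.06 CPM in wild-type mouse 13 and 23.08 CPM in V338Y mouse 19. Both calls were close to the threshold. *Acly* lost its call when any 1 of the 8 mice was left out (adjusted p up to 0.177), and *Acacb* without wild-type mouse 12, 14 or 15 or V338Y mouse 18 (up to 0.121), and over all alternatives the adjusted p ran from 0.0119 to 0.561 for *Acly* and from 0.00201 to 0.281 for *Acacb*. No gene of the 35 was called in the fit of all 16 libraries, with the cerebellum covariate, or without V338Y mice 17 and 18, where *Acly* had a log2 fold change of 0.15 and *Acacb* of 0.22 (adjusted p = 0.0603 and 0.186).

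CPM of the 2 groups at 19 months did not overlap for 6 of the 35 genes, beside 8.92% of all genes, and these were *Acly*, *Acacb*, *Mvk*, *Insig1*, *Fasn* and *Cyp46a1*. *Insig1* was at 77.5, 77.1, 79.8 and 79.1 CPM in V338Y mice and 90.3, 84.2, 84.1 and 82.1 CPM in wild type and did not pass the threshold (log2 fold change -0.14, SE 0.044, adjusted p = 0.0692). The log2 fold changes of *Cyp46a1*, *Mvk* and *Fasn* were 0.14, 0.16 and 0.066, and none of the 3 was called (adjusted p = 0.0812, 0.313 and 0.392). The 18 enzymes of cholesterol synthesis had no call, a median log2 fold change of -0.0091 and a range from -0.12 to 0.16, with confidence intervals that together reached from -0.28 to 0.32. Intervals were narrow for abundant genes, such as -0.089 to 0.060 for *Scd2*, -0.059 to 0.10 for *Scd1*, -0.092 to 0.061 for *Fads1* and -0.10 to 0.053 for *Hmgcs1*. Of the 39 other pathway genes none was called between the genotypes at 19 months by the quasi-likelihood test of edgeR, and 4 had an unadjusted p under 0.05.

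Beside these genotype values, several cell type markers were called at 19 months, where 1.19% of all genes were called higher and 1.92% lower. Of 10 oligodendrocyte markers *Cnp* was called higher in V338Y mice (0.17), and of 8 astrocyte markers *Slc1a3* was called lower (-0.17). *Pdgfra*, of 5 precursor markers (-0.16), and 2 of 6 microglia and 2 of 6 meninges markers were called lower in V338Y mice, and 1 meninges marker higher. Of 6 cerebral cortex neuron markers 1 was called higher in V338Y mice, *Lamp5* (0.20). The 6 choroid plexus markers had positive log2 fold changes without a call, with a median of 0.66, and their sums were 225 to 996 CPM in wild-type mice, below V338Y mice 17 and 18 and partly above mice 19 and 20. Summed microglia markers were at 414 to 445 CPM in wild-type and 383 to 414 CPM in V338Y mice, and meninges markers at 234 to 276 and 220.2 to 259 CPM. Their part in the genotype differences of *Acly* and *Acacb* was not tested.

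**Figure D4:**
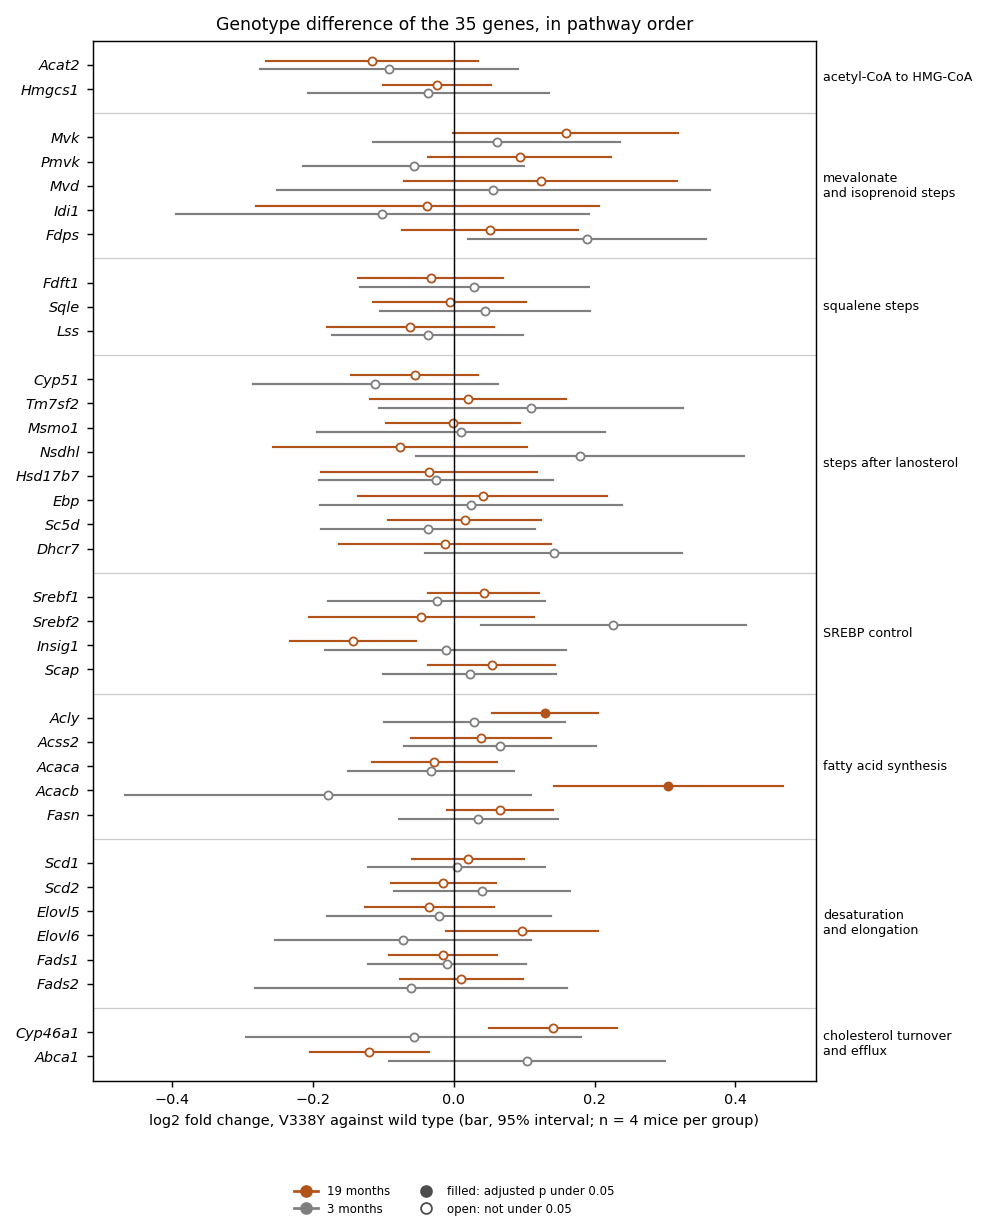
Log2 fold change of V338Y against wild-type mice (x axis) for the 35 genes in pathway order (y axis), at 19 months (brown) and 3 months (grey), with 95% confidence intervals from 4 mice per group and filled points where the adjusted p was under 0.05. The 2 filled points are *Acly* (0.13) and *Acacb* (0.30) at 19 months, and all 35 intervals are wider at 3 months.

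At 3 months none of the 35 genes was called between the genotypes by the quasi-likelihood test of edgeR, beside 0.0616% of the 16241 genes tested (10 genes). DESeq2 and the likelihood-ratio test of edgeR called none either, and 2 of the 35 had an unadjusted p under 0.05. These were *Srebf2*, with 97.5 ± 12.2 CPM in V338Y and 83.2 ± 5.62 CPM in wild-type mice (SD, n = 4, log2 fold change 0.23, SE 0.087, adjusted p = 0.926), and *Fdps*, with 45.1 ± 4.91 and 39.5 ± 1.31 CPM (log2 fold change 0.19, SE 0.078, adjusted p = 0.926). In both cases V338Y mice overlapped the wild type. *Acly* and *Acacb*, called at 19 months, had log2 fold changes of 0.029 and -0.18 at 3 months, with intervals of -0.10 to 0.16 and -0.47 to 0.11. Log2 fold changes of the 35 genes ran from -0.18 to 0.23, with a median of 0.0040.

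The test of whether the age difference itself differed between genotypes, the interaction in a fit of all 16 libraries, called none of the 35 genes, beside 0.0535% of 16831 genes (9 genes). DESeq2 and the likelihood-ratio test also called none. With an unadjusted p under 0.05 there were 3. *Acacb*, with the wider age difference in V338Y mice, had an interaction of 0.50 (SE 0.16, adjusted p = 0.265), and *Srebf2* and *Abca1* had interactions of -0.26 and -0.21 (adjusted p = 0.446 and 0.463). A call in 1 genotype alone, as for *Insig1*, *Elovl6* or *Tm7sf2*, therefore does not show a difference between the genotypes.

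The spread between mice was not the same in all groups. The median coefficient of variation of the 35 genes was 4.57% in 3-month wild-type, 10.7% in 3-month V338Y, 4.84% in 19-month wild-type and 4.38% in 19-month V338Y mice. In some groups the sterol enzymes shared an order of mice to some extent. Of the 18 enzymes, 3-month wild-type mouse 9 had the lowest level for 10, whereas it was lowest for 30.7% of all genes tested. Among 19-month V338Y mice, mouse 17 was lowest for 9, beside 32.2% of all genes. In the 3-month V338Y group, mouse 15 had the lowest level for 13, whereas it was lowest for 31.4% of all genes. There, mouse 13 had the highest for 11, whereas it was highest for 24.1%. For *Hmgcs1*, *Sqle*, *Msmo1* and *Cyp51*, mouse 15 stood at 214, 43.1, 61.0 and 60.5 CPM and the other 3 mice at 253, 49.4, 78.9 and 69.3 CPM or more. *Srebf2* ran the other way in these mice, with its highest level, 110.2 CPM, in mouse 15 and its lowest, 81.4 CPM, in mouse 13. Cell type markers also set mouse 15 apart in its group, with the highest cerebellum and astrocyte sums (1694 and 3733 CPM) and the lowest oligodendrocyte and microglia sums (3813 and 196 CPM), and their part in its low sterol enzymes was not tested.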

How the data were processed

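The study's methods describe single-end Illumina sequencing of cortex RNA with a stranded mRNA kit and RSEM 1.2.18 counts on Ensembl 75 and GRCm37, whereas the submitters' processing notes name bcl2fastq 1.8.4, STAR 2.4.2a, featureCounts and GRCm38. The authors deposited 1 table of estimated counts per gene, not normalized, as whole numbers of at most 4 significant digits (all 1495 values of 10000 or more ended in 0). A strand setting is not given in the sources used here. Of 39179 identifiers, 37607 received a symbol from GENCODE M21 (GRCm38). Mouse numbers in the labels were taken as separate animals.

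Each comparison used its 8 libraries, and the interaction all 16. Genes that reached 10 counts in 2 or more of the 4 mice of 1 group were normalized with TMM and tested with the robust quasi-likelihood test of edgeR 4.0.16 in R 4.3.3, with Benjamini-Hochberg adjustment and a threshold of 0.05. Intervals are 95% confidence intervals of this model. Alternatives were RLE size factors, library size only, other count filters, DESeq2 1.42.0, the likelihood-ratio test, all 16 libraries, a cerebellum covariate, leaving out each mouse, and leaving out 2 mice high in choroid plexus markers. The steps were tested on simulated data. The genes and lists were chosen with earlier results of these data known. The text names all 35 genes, up to 3 genes per list of other pathway genes with the widest called, non-overlapping change, and up to 3 markers per list in list order (1 is not reported here), while *Cnp*, *Slc1a3*, *Lamp5* and the genes with overlapping exons were named after their values were seen.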

Additional observations from a re-analysis of the deposited data

Results flagged for a closer look

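In 5 of the 140 sets of 4 mice (35 genes in 4 groups), 1 mouse stood so far from the other 3 that its gap exceeded Dixon's 95% critical value, and chance alone would mark about 1 set in 20. *Lss* was at 62.0 CPM in 19-month wild-type mouse 12, with the others between 50.4 and 52.3 CPM. *Lss* was also at 56.1 CPM in 19-month V338Y mouse 17, with the others between 51.9 and 52.3 CPM. *Acacb* was at 23.1 CPM in 19-month wild-type mouse 13, with the others between 19.3 and 19.8 CPM, and without this mouse the genotype difference at 19 months was 0.38 on the log2 scale. *Fasn* was at 410.1 CPM in 3-month V338Y mouse 16, with the others between 430.5 and 433 CPM. *Elovl6* was at 58.7 CPM in 19-month V338Y mouse 20, with the others between 61.8 and 62.3 CPM.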

How the results depend on the processing

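With the cerebellum covariate, which nearly coincides with age in wild type, 0 of the 35 genes were called with age in wild type and 12 log2 fold changes turned sign without a call, to 0.45 for *Hmgcs1*, 2.34 for *Mvd*, 0.53 for *Fdps*, -0.049 for *Sc5d*, -0.68 for *Srebf1*, -0.35 for *Srebf2*, -0.94 for *Scap*, -0.42 for *Fasn*, -0.53 for *Scd1*, -0.35 for *Scd2*, -0.16 for *Fads1* and -1.02 for *Fads2*. Over all genes, that wild-type fit called 29 higher and 39 lower of 16101. Under the other 15 alternatives between 22 and 27 of the 35 genes were called in wild type. In V338Y mice the count lay between 13 (without 19-month mice 17 and 18) and 22, leaving aside the fit of 3-month mouse 14 alone. The 2 genotype calls at 19 months became 1 with DESeq2, 1 with the likelihood-ratio test and 0 with all 16 libraries, with the covariate, or without mice 17 and 18, where the cause was not tested, and ran from 0 to 2 with 1 mouse left out, reaching 0 without wild-type mouse 12, 14 or 15 or V338Y mouse 18. Without V338Y mouse 17 the 2 calls were *Acacb*, higher, and *Abca1*, lower in V338Y mice (-0.15, adjusted p = 0.0428). Without a count filter, or scaled by library size alone, they became 3 by adding *Cyp46a1*. In V338Y mice, 80% of the calls with age were higher under the covariate (12 higher, 3 lower) and 72.7% without it. That covariate fit rests on 3-month mouse 14 to set score apart from age. Over all genes, the covariate fit called 2496 higher and 2407 lower of 16770 in V338Y mice. None of the 35 genes was called between the genotypes at 3 months or for the interaction under any alternative.

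The summed level of the 35 genes in 19-month wild-type mice moved from 5314 CPM to 5402 CPM with RLE size factors and to 5212 CPM with library size only. In 3-month wild-type mice the sum was 4240.5 CPM, with 4211 CPM under RLE size factors and 4322 CPM with library size only. Of single-gene calls with age, 42 of 432 repeats in wild type and 62 of 396 in V338Y mice kept the sign and lost the call. No paired analysis was possible because the groups compared share at most 1 mouse number, which names a different animal in each. With 4 mice a group, low genes such as *Idi1* (interval of the genotype difference at 19 months -0.28 to 0.21) had wide intervals. The fit without mice 17 and 18, and a fit of 3-month mouse 14 alone against the 19-month V338Y mice, were chosen after the data were seen.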
